A study of Mus musculus with 20 samples.

Results

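The guanylate-binding proteins and the immunity-related GTPases are interferon-induced GTPases that defend cells against microbes. They were followed in SV40-immortalized mouse embryonic fibroblasts whose genotype is labelled Ampkα1/α2 double knockout, that is, without both catalytic subunits of the energy-sensing kinase AMPK. The members were fixed as a list of 9 genes: Gbp2, Gbp3, Gbp5, Gbp7, Irgm1, Irgm2, Igtp, Iigp1 and Ifi47. The list was selected on results of these same arrays at 12 and 24 h against 0 h, although not every member was higher at both times. A gene was measured where the array annotation gives a probe set its symbol alone, which held for 8 of the 9 members with 11 probe sets, out of 17097 genes on the array. Gbp5 has no such probe set and was not analysed here.

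All cells were of the one labelled genotype, controls included, and no wild-type array was analysed here. The 20 arrays fall into 7 groups. The control group was sampled at 0 h without AICAR (3 arrays). The others received 1 mM AICAR, an adenosine analog that cells convert to the AMP mimic ZMP. There were 3 arrays at each of 1, 2, 4, 12 and 24 h of AICAR, and 2 arrays at 8 h. The question behind the comparison is how AICAR acts on gene expression without AMPK. The controls were all taken at 0 h, so the effects of AICAR and of hours in culture cannot be told apart. The labels do not say whether replicates were separate cultures, so every error and p-value reflects array-to-array spread that may be technical.

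Interferons bind receptors that act through JAK kinases and STAT and IRF transcription factors, which switch on both gene families. Guanylate-binding proteins are large GTPases, several of them anchored in membranes by prenylation, that coat pathogen vacuoles and bacteria and help them to be opened. Immunity-related GTPases are smaller. Irgm1, Irgm2 and Igtp encode regulatory members that reside on the cell's own membranes and keep effector members inactive there, whereas Iigp1 and Ifi47 encode effector members. In fibroblasts both families are best known for their response to interferon-gamma.

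The promoters of the members are shown first, because both families are known interferon targets and the sequences show which letters they share. RefSeq promoter windows (build GRCm38.p6), from 250 bases before the start site to 50 bases after it, were found for 8 members. Iigp1 was not matched. The windows were searched on both strands for the core of the interferon-stimulated response element (GAAA, any 2 letters, GAAA), which IRF factors recognise, and for the core of the gamma-activated site, TTCNNNGAA, which STAT factors recognise and which reads the same on both strands. Below are the 110 bases before the start site for the measured members, 5′ to 3′ on the gene's strand, with every match to either core in capitals.
Gbp2, chr3:142620553-142620662, plus strand: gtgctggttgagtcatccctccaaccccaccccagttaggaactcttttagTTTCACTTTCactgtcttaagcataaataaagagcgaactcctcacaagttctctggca
Gbp3, first start site, chr3:142559934-142560043, plus strand: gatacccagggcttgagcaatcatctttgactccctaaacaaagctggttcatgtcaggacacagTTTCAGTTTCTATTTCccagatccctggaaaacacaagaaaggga
Gbp7, chr3:142530226-142530335, plus strand: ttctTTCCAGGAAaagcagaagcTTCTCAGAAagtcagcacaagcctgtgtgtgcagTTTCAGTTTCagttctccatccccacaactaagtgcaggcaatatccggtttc
Irgm1, chr11:48871421-48871530, minus strand: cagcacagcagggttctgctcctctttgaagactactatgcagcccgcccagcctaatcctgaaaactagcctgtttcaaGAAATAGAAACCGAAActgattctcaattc
Irgm2, chr11:58214867-58214976, plus strand: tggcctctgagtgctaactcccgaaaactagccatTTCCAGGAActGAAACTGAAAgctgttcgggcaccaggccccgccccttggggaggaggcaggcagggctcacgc
Igtp, chr11:58199446-58199555, plus strand: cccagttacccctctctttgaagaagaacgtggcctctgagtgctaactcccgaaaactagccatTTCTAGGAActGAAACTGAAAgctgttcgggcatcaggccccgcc
Ifi47, chr11:49076477-49076586, plus strand: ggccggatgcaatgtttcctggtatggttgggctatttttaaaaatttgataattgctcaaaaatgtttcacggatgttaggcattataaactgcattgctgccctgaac

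The response-element core was present in the window of 7 of the 8 members: Gbp2, Gbp3, Gbp5, Gbp7, Irgm1, Irgm2 and Igtp. It is present in 3.44% of the 32851 promoter windows of the same length. In Gbp3 and Irgm1 there were 2 overlapping matches each, and in the 6 measured genes the matches lay within 64 bases of the start site. A second RefSeq start site of Gbp3 had no match in its window, and neither had Ifi47. The gamma-activated core was found in Gbp5, Gbp7, Irgm2 and Igtp, against 8.3% of all windows, and both cores stood together in these 4 genes, against 0.454% of all windows. A match describes letters in a window and is not evidence of binding, and a window without one says nothing about a site elsewhere.

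**Figure D1:**
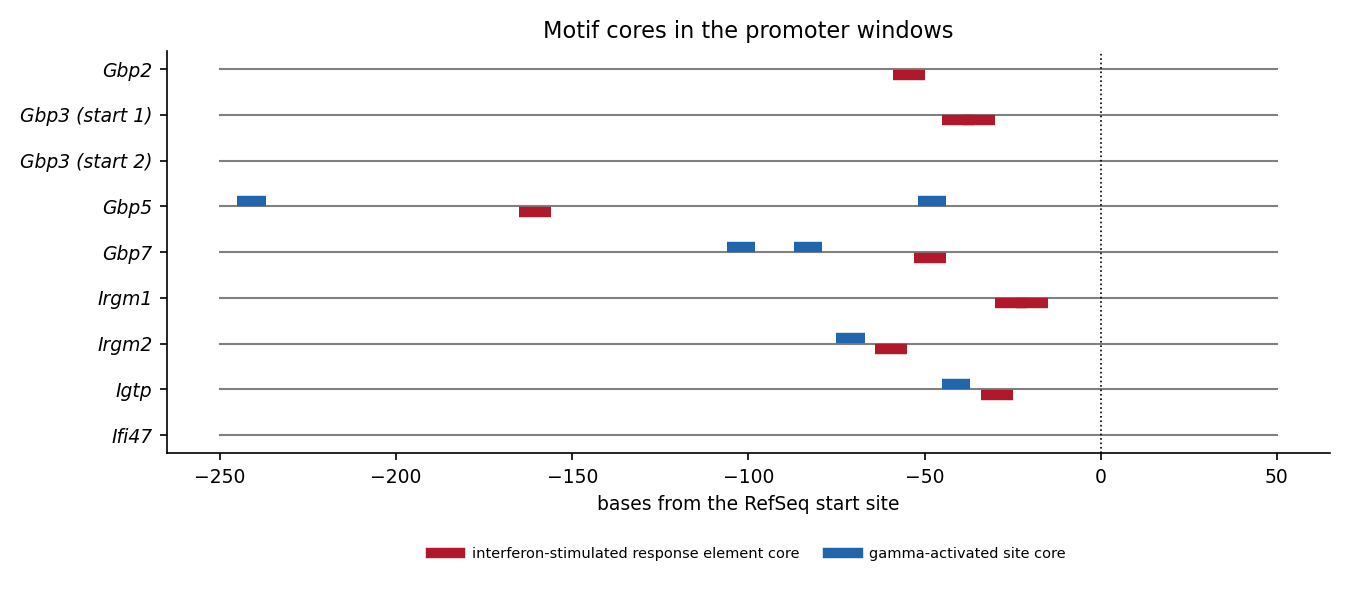
Positions of the response-element core (red) and the gamma-activated core (blue) in the promoter windows of 8 members, in bases from the RefSeq start site (dotted line at 0). Each grey line is a window, and Gbp3 has 2; the red marks of Gbp2, Gbp3, Gbp7, Irgm1, Irgm2 and Igtp lie within 64 bases of the start, and the windows of Ifi47 and of the second Gbp3 start are empty.

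The Irgm2 and Igtp windows share a nearly identical stretch. Of 142 aligned bases of the 300 in each window, without a gap, 139 were identical (97.9%), and the stretch lay 30 bases closer to the start site in Igtp. No other pair of member windows shared more than 19 identical bases in such an alignment. Igtp and Irgm2 are neighbours on chromosome 11 in the RefSeq gene order, and Gbp5, Gbp7, Gbp3 and Gbp2 follow each other on chromosome 3, interrupted only by Gbp2b. Sequence likeness within both families means that a probe set may also hybridise to a relative, and the share of signal this gives was not tested.

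Array medians of the log2 signal lay between 5.16 and 5.32, and interquartile ranges between 2.77 and 3.24. The background level used here is each array's 95th percentile of 23 nonspecific control probe sets, which ran from 4.71 to 5.13. Its group mean was 5.09 in the controls and 4.86 at 24 h. As a measure of RNA integrity, actin control signal at the 3′ end exceeded that at the 5′ end by 0.383 to 0.458 in the controls and 0.503 to 0.557 at 24 h. The part of both in the 24 h values was not tested. Of 11 fibroblast markers, 8 were above background on all control arrays, among them Vim, Fn1 and Col3a1, while Col1a2, Lum and Thy1 were not on any. Over all 12944 genes tested, 5229 passed limma at 24 h in either direction, and 25.8% passed higher. Of the 9 fibroblast markers tested, 0 rose and 3 fell at 24 h (limma): Fn1 by 0.30 (adjusted p = 0.00916), Pdgfrb by 0.25 (adjusted p = 0.0461) and Thy1 by 0.22 (adjusted p = 0.0329), the last from below background. The part of this in the members' values was not tested. Of 8 macrophage markers, Csf1r, Cd14 and Tyrobp were above background on all control arrays, at 5.77, 6.38 and 5.47, and did not pass the test at 24 h. Cd68, below background in the controls, rose by 1.08 (limma adjusted p = 1.26e-06) and passed the filter on low signal through AICAR groups alone. The mean of the 8 macrophage markers was 4.90 to 4.95 in the controls and 4.94 to 5.08 at 24 h. The others, Ptprc, Itgam, Lyz2 and Adgre1, were not above background on any control array. Ptprc, Itgam and Lyz2 had means of 3.93 to 4.20 at 24 h, and Adgre1 was at 4.82, a difference of -0.003 that did not pass the test. Of other markers, 1 of 6 for T and NK cells, 2 of 2 dendritic, 2 of 4 epithelial and 1 of 4 endothelial were above background on all control arrays. Among them were Cd3e at 6.50, Epcam at 6.37 and Kdr at 6.26. Signal above background thus does not by itself show that a gene is expressed. In bulk RNA, fewer cells of a type and less RNA per cell cannot be told apart.

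The members were proposed with their values at 12 and 24 h known, so these are given as a description without a test. At 24 h all arrays of the 8 measured members lay above all control arrays, as they did for 30% of the 12944 genes tested. The difference from 0 h ran from 0.73 for Iigp1 to 3.74 for Gbp3 on the log2 scale, with a median of 2.30, while the median over all genes tested was 0.01. Only 0.294% of the genes tested had a difference of 2 or more at 24 h, and Gbp2, Gbp3, Irgm1, Irgm2 and Igtp are among them. At 12 h the arrays of 5 members lay wholly above the controls, against 20.7% of the genes tested, and the median difference was 0.50.

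**Figure D2:**
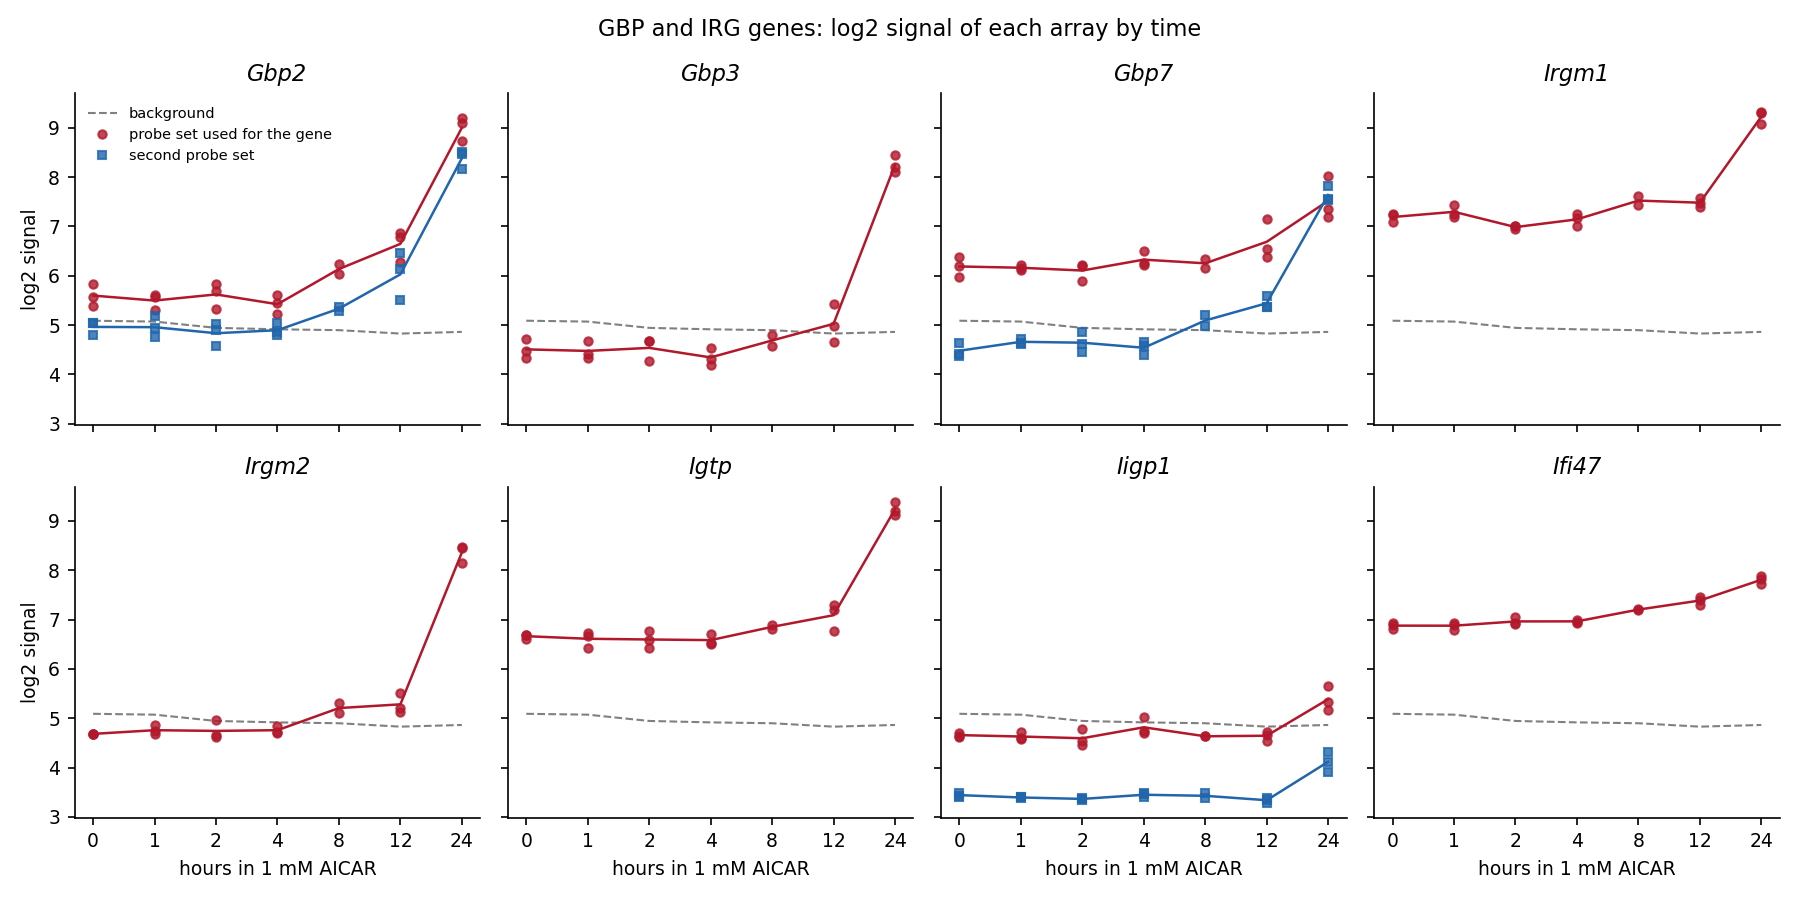
Log2 signal (vertical axis) of each array against hours in 1 mM AICAR (evenly spaced, not to scale) for the 8 measured members; points are arrays, lines join group means, red is the probe set used for the gene, blue a second probe set and the dashed line the mean background level. Group means of the red probe sets up to 4 h differ from the controls by -0.20 to 0.16, and each gene is highest at 24 h, where Gbp2 reaches 8.72 to 9.19 and Iigp1 5.17 to 5.65.

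Among the guanylate-binding proteins, Gbp2, which is recruited to parasite vacuoles, had control arrays at 5.84, 5.57 and 5.39. Its arrays were at 6.24 and 6.03 at 8 h, at 6.86, 6.79 and 6.29 at 12 h, and at 9.09, 9.19 and 8.72 at 24 h. The groups from 8 h on did not overlap the controls, and the step from 12 to 24 h, 2.35 ± 0.17 (SE), was larger than everything before it. The difference from 0 h was 1.05 ± 0.17 (SE, n = 3) at 12 h and 3.40 ± 0.17 at 24 h, a 10.6-fold higher signal. This probe set is of the _x_ type, whose probes can match other transcripts. The second probe set of Gbp2, which is not, differed by 1.07 ± 0.19 at 12 h and 3.42 ± 0.19 at 24 h, so the probe sets gave the same size of difference within their errors. Its control arrays were not above background, and against that level it was at least 9.80-fold higher at 24 h.

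Gbp3, a neighbour of Gbp2, was below the background level on all control arrays, at 4.72, 4.47 and 4.33. It was below background on each array up to 8 h, spread from 4.67 to 5.42 at 12 h with overlap with the controls, and reached 8.10, 8.44 and 8.21 at 24 h. The 24 h difference was 3.74 ± 0.17 (SE, n = 3). Set against the background level in place of the control signal, the signal was at least 8.94-fold higher.

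Gbp7, the remaining measured guanylate-binding protein gene, had 2 probe sets that disagreed. The one with the higher mean gave 5.98, 6.20 and 6.39 in the controls and 8.02, 7.36 and 7.19 at 24 h, a difference of 1.33 ± 0.19 (SE, n = 3). Its arrays at 8 and 12 h overlapped the controls. The other gave 4.42, 4.64 and 4.38 in the controls, all below background, and 7.55, 7.83 and 7.54 at 24 h, a difference of 3.16 ± 0.11. By this probe set the signal was at least 5.85-fold higher at 24 h, and the 8 h and 12 h arrays were already wholly above the controls. The mean of both put Gbp7 at 2.25 at 24 h. Gbp7 is thus either the third smallest or among the larger differences of the 8 genes, depending on the probe set.

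Of the regulatory immunity-related GTPases, Irgm2 had control arrays at 4.68, 4.69 and 4.68, below background. They stood at 5.30 and 5.11 at 8 h, at 5.13, 5.51 and 5.20 at 12 h and at 8.46, 8.47 and 8.15 at 24 h. From 4 h on every array was above the controls, as for 13.6% of all genes at 4 h, and from 8 h on every array was above background. The differences were 0.60 ± 0.11 (SE, n = 3) at 12 h and 3.68 ± 0.11 at 24 h, where the signal was at least 9.65-fold above the background level.

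Igtp, also called Irgm3, whose promoter window shares that stretch with Irgm2, had signal above background in the controls, at 6.69, 6.62 and 6.68. Its arrays were at 7.30, 7.20 and 6.77 at 12 h and at 9.12, 9.39 and 9.20 at 24 h. Both groups lay above the controls without overlap, by 0.42 ± 0.12 and 2.57 ± 0.12 (SE, n = 3), the latter a 5.95-fold higher signal. Irgm1, known for its role in resistance to mycobacteria and in autophagy, had controls at 7.24, 7.24 and 7.09. It stood at 7.57, 7.48 and 7.40 at 12 h and 9.07, 9.31 and 9.29 at 24 h. The difference of Irgm1 was 0.29 ± 0.09 at 12 h, close to its 0.33 ± 0.10 at 8 h, and 2.04 ± 0.09 at 24 h.

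Of the effector members, Ifi47 had controls at 6.88, 6.94 and 6.81 and rose in small steps, to 7.20 and 7.21 at 8 h, 7.30, 7.46 and 7.40 at 12 h and 7.88, 7.82 and 7.72 at 24 h. From 4 h on no array overlapped the controls. Its 24 h difference was 0.93 ± 0.07 (SE, n = 3), and 0.51 ± 0.07 of it was present at 12 h. Iigp1, which loads onto Toxoplasma vacuoles, was below background on all control arrays and stayed at the control level to 12 h. At 24 h it stood at 5.65, 5.34 and 5.17, a difference of 0.73 ± 0.11 and at least 1.23-fold above background. A second Iigp1 probe set was below background on every array of the series, at 3.41 to 3.48 in the controls and 3.91 to 4.32 at 24 h, and did not pass the filter on low signal.

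**Figure D3:**
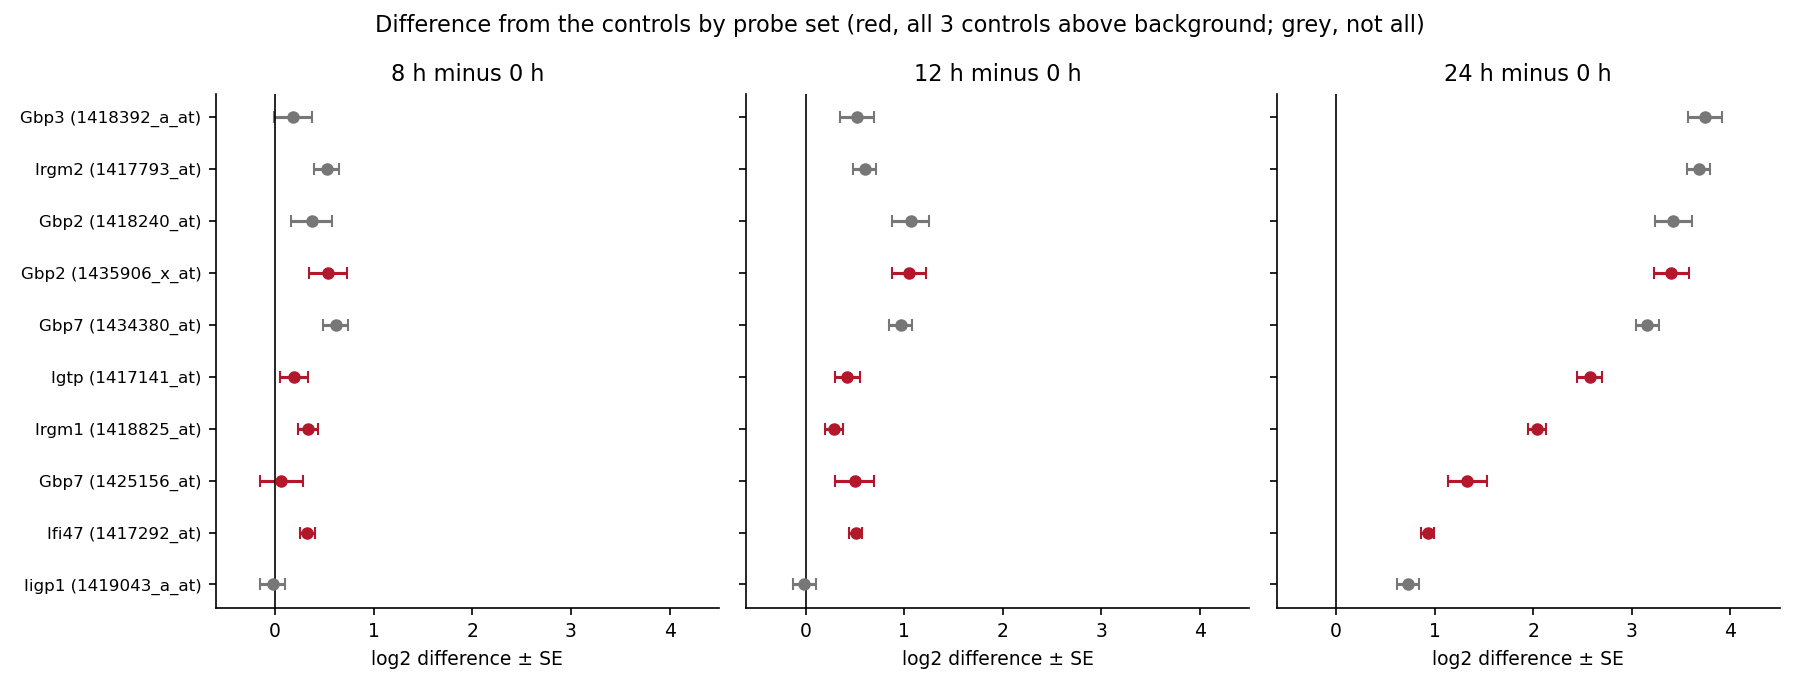
Log2 difference from the 0 h controls at 8, 12 and 24 h (horizontal axis, with SE bars) for the 10 member probe sets that passed the filter on low signal; red marks probe sets with all 3 control arrays above background, grey the others. At 24 h the differences run from 0.73 (Iigp1) to 3.74 (Gbp3), and the Gbp7 probe sets stand apart at 1.33 and 3.16.

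Ordered by the 24 h difference, the genes ran Gbp3, Irgm2, Gbp2, Igtp, Irgm1, Gbp7, Ifi47, Iigp1. Gbp3 and Irgm2 differed by 0.06 ± 0.20 and Irgm2 and Gbp2 by 0.28 ± 0.20, so the top 3 did not differ beyond about 1 to 2 SE. Igtp stood 0.83 ± 0.21 below Gbp2 and 0.54 ± 0.15 above Irgm1. Ifi47 and Iigp1 differed by 0.20 ± 0.13. The errors of these gaps treat the genes as independent, although all were measured on the same arrays. Since Gbp3, Irgm2 and Iigp1 start below background, their true differences may be larger than those measured, and this order describes signal. The 12 to 24 h step held most of the difference in each gene but Ifi47. It was 3.22 ± 0.17 for Gbp3, 3.08 ± 0.11 for Irgm2, 2.15 ± 0.12 for Igtp, and 0.42 ± 0.07 for Ifi47.

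Replicates did not sit alike in the late groups. At 24 h replicate 3 was the lowest array for 5 of the 8 genes and replicate 2 the highest for 5. At 12 h replicate 3 was again the lowest for 5. Replicate 3 also had the narrowest interquartile range in both groups, 2.91 at 24 h and 2.84 at 12 h. This was not particular to the late groups. Replicate 3 was the narrowest in the controls (2.90), at 1 h (2.89) and at 2 h (2.79) too, and replicate 2 at 4 h (2.77). With the interquartile range as a covariate the median differences at 24 and 12 h were 2.29 and 0.46, close to those without it.

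The earlier AICAR arrays were not used to choose the members, although the control arrays were, and these comparisons were tested with limma, with Benjamini-Hochberg adjustment over all 12944 genes. At 1, 2 and 4 h, 0 of the 24 member and time pairs passed an adjusted p of 0.05, and 1 (Irgm1 at 2 h) had an unadjusted p under it. Over all genes, 0.479% passed at 1 h, 1.47% at 2 h and 12.1% at 4 h. Differences lay between -0.20 and 0.16, and the ends of their 95% intervals between -0.54 and 0.55. Irgm1 was 0.20 ± 0.09 below the controls at 2 h, with arrays from 6.96 to 7.01, below all controls as for 8.39% of all genes (limma adjusted p = 0.405). With array weights it passed (-0.23, adjusted p = 0.0326), as did Gbp3 at 4 h (-0.31, adjusted p = 0.00385 against 0.614 without weights). With these weights 1338 genes in all passed at 2 h in place of 190, and 7476 at 4 h in place of 1564. Gbp3 was below background on every array of both groups.

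At 8 h, 3 of the 8 genes rose, against 7.49% of all genes tested that passed in this direction. The members were chosen on differences from these same control arrays, so the comparison with all genes is not on equal terms. Irgm2 rose by 0.52 ± 0.12 (SE; limma adjusted p = 0.0118) from below background, against which its signal was at least 1.08-fold higher. It passed the filter on low signal only through its 8, 12 and 24 h groups. Ifi47 rose by 0.33 ± 0.08 (adjusted p = 0.0101) and Irgm1 by 0.33 ± 0.10 (adjusted p = 0.0386). Gbp2 had the largest difference, 0.54 ± 0.19, and did not pass (adjusted p = 0.0799). Igtp was at 0.19 ± 0.14, Gbp3 at 0.18 ± 0.19, Gbp7 at 0.06 ± 0.22 and Iigp1 at -0.02 ± 0.13. By its second probe set, fitted with each probe set on its own, Gbp7 rose by 0.61 ± 0.13 (limma adjusted p = 0.00767) from a signal below background. Against that level it was at least 1.00-fold higher, so this rise rests on the signal below background. Like Irgm2, this probe set passed the filter only through its 8, 12 and 24 h groups. The arrays of 5 genes were wholly above the controls at 8 h, against 26% of all genes.

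The 8 h group held 2 arrays. Without AICAR 8h replicate 1, 0 of the 8 genes passed limma, when 1.31% of all genes passed higher. Without AICAR 8h replicate 2, the differences were 0.62 for Irgm2, 0.32 for Ifi47 and 0.42 for Irgm1, and those of Ifi47 and Irgm1 did not pass. The remaining 8 h array is then assumed to vary as the other groups do. Without each control array in turn Irgm1 did not pass (adjusted p from 0.058 to 0.14), nor did it with median centring (0.0798), quantile normalization (0.0695), trended and robust variance (0.0522) or the 2 groups alone (0.0675). Gbp2 passed at 8 h with the interquartile range covariate (0.47, adjusted p = 0.0007), with array weights (0.0106), and without AICAR 12h replicate 3 (0.0441). In these 3 settings 2418, 2371 and 1459 genes in all passed at 8 h, in place of 1336.

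The members varied together chiefly through the late arrays. Over the 20 arrays, Pearson's r between pairs of members had a median of 0.90 (28 pairs, lowest 0.74). Over the 14 arrays of 0 to 8 h its median was 0.35, and after subtraction of group means it was 0.19. Gbp2 and Gbp3 had the highest values of both kinds, 0.81 and 0.74, but Gbp3 was below background on all arrays of 0 to 8 h. The first of these thus rests on background signal, and the second includes the same 14 arrays. The median of 0.35 includes pairs with Gbp3, Irgm2 or Iigp1, whose control arrays were below background. These r values are descriptions, since the arrays share groups and processing.

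The 10 genes whose pattern over the 20 arrays was most like the mean of the members, by Pearson's r, were Ifih1, Xaf1, Parp9, Samd9l, Parp14, Ifi27, Trim12c, Rtp4, Trim30d and Trim25. Their r ran from 0.987 for Trim25 to 0.995 for Ifih1. Ifih1, which encodes the double-stranded RNA sensor MDA5, differed from 0 h by 0.90 at 12 h and 3.35 ± 0.11 (SE, n = 3) at 24 h. Parp9 and Parp14, ADP-ribosyltransferase genes, differed by 2.41 ± 0.08 and 3.05 ± 0.11 at 24 h. The ubiquitin ligase gene Trim25, which acts in RNA sensing, had the smallest 12 h difference of the 10, 0.28.

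Of 19 other genes listed for both families and related GTPases, 9 had a single-symbol probe set and 6 passed the filter, and 2 of these rose at 24 h, against 25.8% of all genes. Tgtp1, an effector immunity-related GTPase, rose by 1.31 ± 0.09 (SE; limma adjusted p = 4.17e-09) from 4.87, below background, against which it was at least 2.14-fold higher. Mx2, a dynamin-like antiviral GTPase, rose by 0.35 ± 0.09 (limma adjusted p = 0.00362). At 12 h Tgtp1 was at -0.18 (adjusted p = 0.166). The guanylate-binding protein genes Gbp4 and Gbp10, which lie in another cluster on chromosome 5, were at -0.09 ± 0.07 and 0.09 ± 0.10 at 24 h and did not pass. Gbp10 was above background on 0 control arrays and on 1 array at 24 h, and Gbp4 was near that level, at 5.16 in the controls. Signals that low do not show that a gene did not respond. Gbp2b and Gbp8 were too low for the filter, at 4.06 and 3.91 at 24 h. These 4 were named after their values were seen.

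Of 9 tested genes for interferons and their receptors, 4 rose at 24 h, against 25.8% of all genes. The receptor chain genes Il10rb, Ifngr1, Ifnar1 and Ifnlr1 rose by 1.32 ± 0.09, 0.91 ± 0.11, 0.62 ± 0.13 and 0.56 ± 0.10 (limma adjusted p from 5.4e-09 to 0.000767). Il10rb and Ifngr1 had passed at 8 h too, at 0.67 and 0.47. Of the ligand genes, named after their values were seen, Ifnb1 was at 0.07 ± 0.09 at 24 h (adjusted p = 0.602), and Ifng was below the filter with 4.17 in the controls and 4.08 at 24 h. The control mean of Ifnb1, 4.95, lay below the background level, and a signal that low does not show that a transcript was absent.

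Of 14 JAK, STAT and IRF genes tested, 7 rose and 1 fell at 24 h, when 25.8% of all genes passed higher. Irf9, a DNA-binding factor of interferon signalling, rose by 2.31 ± 0.10 (SE; limma adjusted p = 1.35e-11), from 5.52 to 7.83, and Stat2 by 1.10 ± 0.12. Nlrc5, a transactivator of MHC class I genes, rose by 1.82 ± 0.16, with 1.03 already present at 12 h (adjusted p = 0.000141), and Irf7 rose by 0.64 ± 0.10. No control array of Irf7 and 2 of 3 of Stat2 were above background. Socs3, a feedback inhibitor of JAK signalling named after its value was seen, fell by 0.38 ± 0.11 at 24 h (adjusted p = 0.0112). At 1 h 2 of the 14 genes had fallen, when 0.479% of all genes passed. These were Socs3, by 0.68 ± 0.11 (limma adjusted p = 0.00569), and Irf1, by 0.68 ± 0.11 (adjusted p = 0.00603). Irf1, also named after its values were seen, was at -0.51 at 2 h (adjusted p = 0.0271) and rose by 0.52 ± 0.11 at 24 h (adjusted p = 0.00103). At 12 h Irf9 was at 0.18 and Irf7 at -0.06, and neither passed.

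Of 9 tested genes that respond mainly to interferon-gamma, 2 rose at 24 h, a share no larger than the 25.8% of all genes. The median was 0.08, against 0.01 over all genes. Ciita and Cxcl9 were above background on 0 control arrays and Nos2 on 1, and signals that low do not show that a gene did not respond. Cd274, which encodes the checkpoint ligand PD-L1, rose by 1.05 ± 0.12 (SE; limma adjusted p = 2.27e-06) and the MHC class II gene H2-Ab1 by 0.39 ± 0.12 (adjusted p = 0.0152). H2-Ab1 did not hold without control 0h replicate 2 or without AICAR 24h replicate 2, when 1 gene of the list passed. The difference between this list and the members was not tested.

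Of 11 genes of the machinery that targets these GTPases to vacuoles, chiefly the ATG8-conjugation system, 7 rose at 24 h, against 25.8% of all genes, and 4 did with the mean of all probe sets. Trim21, an antibody receptor and ubiquitin ligase that is itself interferon-induced, rose by 1.88 ± 0.10 (limma adjusted p = 2.47e-10). The ATG8-family genes Gabarap, Map1lc3a and Gabarapl1 rose by 0.43 ± 0.07, 0.40 ± 0.06 and 0.38 ± 0.09. Of 6 prenylation enzyme genes, Fnta, a subunit shared by the farnesyl and geranylgeranyl transferases, rose by 0.43 ± 0.07 (adjusted p = 8.07e-05) and the other 5 did not pass. Of 3 tested inflammasome genes, Il18 rose by 1.62 ± 0.17 (adjusted p = 4.18e-07), and by 0.78 at 12 h. Casp1 and Casp4 were below the filter, at 3.99 and 4.30 in the controls.

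**Figure D4:**
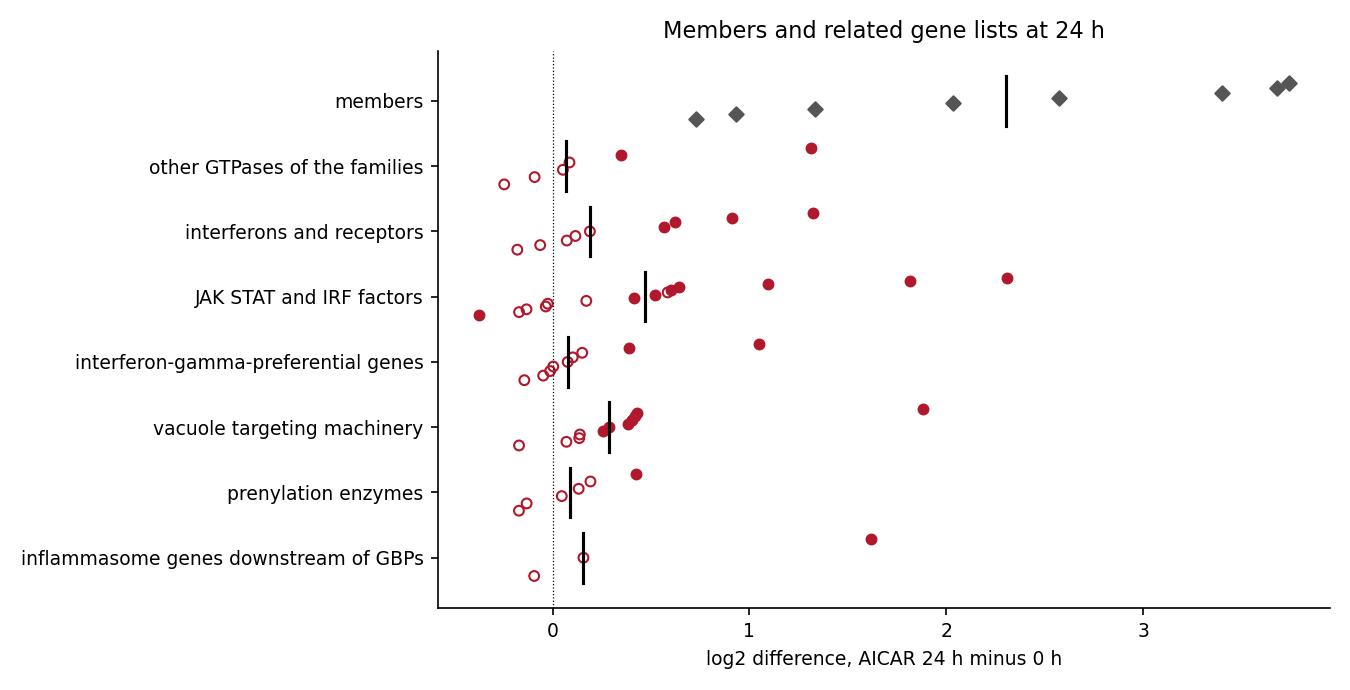
Log2 difference at 24 h from the 0 h controls (horizontal axis) for the 8 measured members and the tested genes of 7 related lists; each point is a gene, filled red points passed limma at an adjusted p of 0.05, open ones did not, grey diamonds are the members, shown without a test, and black bars are medians. The members' median is 2.30, and the list medians run from 0.07 (other GTPases of both families) to 0.47 (JAK, STAT and IRF genes).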

How the data were processed

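Biotin-labelled cRNA of 20 samples was hybridised to Affymetrix MG-430 PM array strips, per the labels' protocols. The deposited values are 45141 probe sets by 20 arrays on a log2 scale. The log base was read from the values: their highest, 13.5, is more than natural logs of 16-bit scanner readings can reach (11.1). The authors made these log2 values by steps not given in the sources used here. They were analysed as deposited. The 104 array control probe sets were not tested. Symbols came from the platform annotation, updated through gene identifiers with RefSeq's GRCm38.p6 table (28689 of 28898 single-symbol probe sets). The probe set with the highest mean stood for each of 17097 genes, and 12944 had a highest group mean above the 40th percentile of all values (4.81). Gbp3, Irgm2 and Iigp1 passed this filter through AICAR groups alone, as did the second Gbp7 probe set in the fit of single probe sets.

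Each time was compared with 0 h in one fit over the 20 arrays with limma 3.58.1 (lmFit, eBayes) in R 4.3.3, two-sided, with a threshold of 0.05 on Benjamini-Hochberg adjusted p. The fit was tested on simulated data. Differences are of mean log2 signal with SE, and "at least" folds replace a control array's signal by its background level where that is higher. Precision is limited by how many arrays there were. The members, gene lists and tests were chosen with earlier results of these data known. All members were named, with up to 4 genes a list past the threshold at 24 h by t, and the 10 most correlated genes outside Riken and Gm loci. Alternatives covered normalization, filter, probe set choice, variance model, array weights, replicate block and single arrays left out. They were applied to the list counts after the data were seen. Figures used Python 3.11.15 and matplotlib 3.10.9. No pair of arrays held identical values. Replicate numbers were not taken as pairs.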

Additional observations from a re-analysis of the deposited data

How the results depend on the processing

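The median difference of the members stayed between 2.24 and 2.57 at 24 h and between 0.42 and 0.61 at 12 h over 31 alternatives each. At 24 h it was 2.57 with the 60th-percentile filter and with the mean of all probe sets, both of which removed Iigp1, and ran from 2.24 to 2.37 without single arrays. The count of members called at 1 h was 0 in every alternative. It was 0 without single arrays at 2 and 4 h as well, and 1 with array weights at each of these times, when 1338 and 7476 genes in all passed. At 8 h it was 3, ran from 0 to 4 without single arrays and was 0 at an adjusted p under 0.01. With a replicate block it was 4 at 8 h, Gbp2 added (0.43, limma adjusted p = 0.0301), and 1965 genes in all passed in place of 1336; 2428 in place of 1564 passed at 4 h, 386 in place of 190 at 2 h and 107 in place of 62 at 1 h. Deviations of same-numbered arrays correlated at -0.46 to 0.79 (median 0.32, against -0.17 for different numbers). Same-numbered arrays were thus more alike by the median, and the main fit does not use this. The numbers were not taken as pairs because the labels do not say what same-numbered arrays share. Of the 20 arrays, 12 correlated best with their own number, as a hint from the data alone. Of the lists, counts at 24 h moved over 1.5 times for the vacuole machinery (4 with the mean of all probe sets), the interferon-gamma list (1), prenylation (2 with quantile normalization or array weights) and inflammasome genes (2 with array weights). Array weights stopped short of their convergence tolerance. Signals below background limit what can be said of Gbp3, Irgm2 and Iigp1 before 24 h.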

Other observations

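The response-element core seen in the members' promoters was also counted for the other genes tested. Of 10394 such genes with a RefSeq window, 3.28% held GAAA, any 2 letters, GAAA. Of the 229 genes with a log2 difference of at least 1 at 24 h, 28 held it (12.2%), and of the 23 with a difference of at least 2, 10 held it (43.5%). These counts describe windows of 300 bases and were made after the members' promoters were seen.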
